A study of Mus musculus with 2 samples.

Results

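The class III phosphatidylinositol 3-kinase makes the membrane lipid PI3P, which marks the sites where autophagosomes form and where endosomes mature. Its catalytic subunit (Pik3c3, also called Vps34), its regulatory kinase-like subunit (Pik3r4, also called Vps15) and Beclin 1 (Becn1) form a shared core. Atg14 directs this core to the forming autophagosome, whereas Uvrag takes the same place in a second complex that acts on endosomes. Ambra1 binds Beclin 1 and promotes autophagy, and the WIPI family, here Wipi1, Wipi2 and Wdr45, binds the PI3P that the kinase makes. These genes were examined in mouse embryonic fibroblasts (MEFs) after knockdown of the long noncoding RNA AK156230, in an array experiment that looked for mRNAs changed by silencing this RNA, which the study examined for a role in cellular senescence.

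The 9 genes were represented by 23 probe sets of the 45037 in the deposited table, and by 9 of 18193 named genes. Every probe set whose platform annotation gave a single gene, and that gene a member, was taken, so no probe set of a member was picked by its value. The member genes themselves were chosen with earlier results of these data known. RNA came from young MEFs at passage 2, isolated from whole C57BL/6 embryos of embryonic day 13.5. One culture had been transfected with GapmeR Control, a non-targeting scramble antisense oligonucleotide. The other had received GapmeR AK156230, an oligonucleotide that directs RNase H to the lncRNA. Each condition was hybridized to 1 Affymetrix array, so no difference below has a replicate array, no test was possible and no p-value is given. The data held no array of cells given another oligonucleotide against AK156230. The cultures are called control cells and knockdown cells from here, and a log2 ratio is that of the knockdown signal over the control signal.

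The arrays were similar as a whole, with median MAS5 signals of 54.8 for control cells and 51.0 for knockdown cells, a Pearson correlation of 0.970 between log2 signals across probe sets, and a median log2 ratio of -0.066. All 14 measured fibroblast markers had signals in the upper part of the array, at its median or above, and 6 of them, among which Pdgfra and Col3a1, were at least 2-fold lower in knockdown cells. The summed signal of these markers was 46581 in control cells and 30389 in knockdown cells. It was 1253 and 1271 for 7 leukocyte markers, 497 and 902 for 7 epithelial markers, 135 and 169 for 5 endothelial markers, and 965 and 1420 for 6 muscle markers. Signals at or above the median were found for 5 leukocyte, 4 epithelial, 1 endothelial and 4 muscle markers. None of these 25 markers was at least 2-fold lower, and 6 were at least 2-fold higher in knockdown cells: Cd14 (95.3 and 225), Cd68 (108 and 275), Dsp (39.3 and 319), Krt18 (127 and 299), Kdr (44.5 and 90.9) and Tnnt2 (59.7 and 250.2). The median log2 ratio was -0.30 for the leukocyte and -0.28 for the endothelial markers. It was 0.050 for the epithelial and 0.12 for the muscle markers, so the 6 higher markers do not stand for their lists. Ptprc (30.9 and 25.9), Pecam1 (33.6 and 27.8) and Krt5 (36.6 and 36.8) lay under the median signal on both arrays. In RNA of a whole culture, fewer cells of a type and less RNA per cell cannot be told apart. The part of these markers in the differences below was not tested.

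The probe sets with the largest ratios belonged to Uvrag in one direction and to Wipi2 and Atg14 in the other, and the start of each of these genes is shown for that reason. The windows hold 100 bases before the start site that the RefSeq promoter table uses and 10 bases from it on, on GRCm38.p6. That site is the outer end of the gene for Atg14 and lies 23 bases inside it for Uvrag and 51 bases inside it for Wipi2. The windows are Uvrag at chr7:99141135-99141244 on the minus strand, Atg14 at chr14:47568425-47568534 on the minus strand and Wipi2 at chr5:142629484-142629593 on the plus strand. Capitals mark matches to CCAAT or ATTGG, the element bound by NF-Y, and to CACGTG, the E-box core read by TFEB and MITF, transcription factors of autophagy and lysosomal genes.
Uvrag: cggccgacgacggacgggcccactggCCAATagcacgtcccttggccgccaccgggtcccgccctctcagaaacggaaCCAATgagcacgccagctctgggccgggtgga
Atg14: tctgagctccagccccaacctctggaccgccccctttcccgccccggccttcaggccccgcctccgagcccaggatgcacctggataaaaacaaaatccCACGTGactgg
Wipi2: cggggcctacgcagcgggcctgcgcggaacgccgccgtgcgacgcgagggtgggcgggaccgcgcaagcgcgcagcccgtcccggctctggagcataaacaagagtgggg

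Both motifs were searched on both strands of the 300 bases around each start for the 7 members with an entry. CACGTG was found in Atg14 alone of the 7, and in 7.15% of all 32851 promoters. The other motif was found in Uvrag, Pik3r4 and Wdr45 and in 37.4% of all promoters, and Uvrag carried 3 matches in its 300 bases, 2 of them in the window shown. These matches are descriptions of the letters and not measured binding sites.

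Across the complex, 1 of the 23 probe sets was at least 2-fold lower in knockdown cells and none at least 2-fold higher, where 3.28% of all probe sets were lower and 1.45% were higher. Counted as genes by the brightest probe set, 1 of 9 was lower and none was higher, against 3.85% lower and 1.59% higher of all genes. The median log2 ratio of the 23 probe sets was 0.044, and 13 of them were above 0. The count changed with the scaling. With both arrays brought to the same median signal, or with quantile normalization, 1 member probe set was higher by 2-fold or more. Of all 45037 probe sets, 896 and 824 were higher under these scalings. Among all probe sets past 2-fold, 57.2% and 60.6% were then on the lower side, in place of 69.3%. As a measure of how far probe sets of a gene differ on the same 2 arrays, the ratios of its 2 brightest probe sets were compared. They differed with an SD of 0.390 over 5112 genes, or 0.276 per probe set. Only probe sets at or above the median signal entered, so this SD does not cover dim ones. It holds no variation between cultures or between arrays of one condition.

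**Figure D1:**
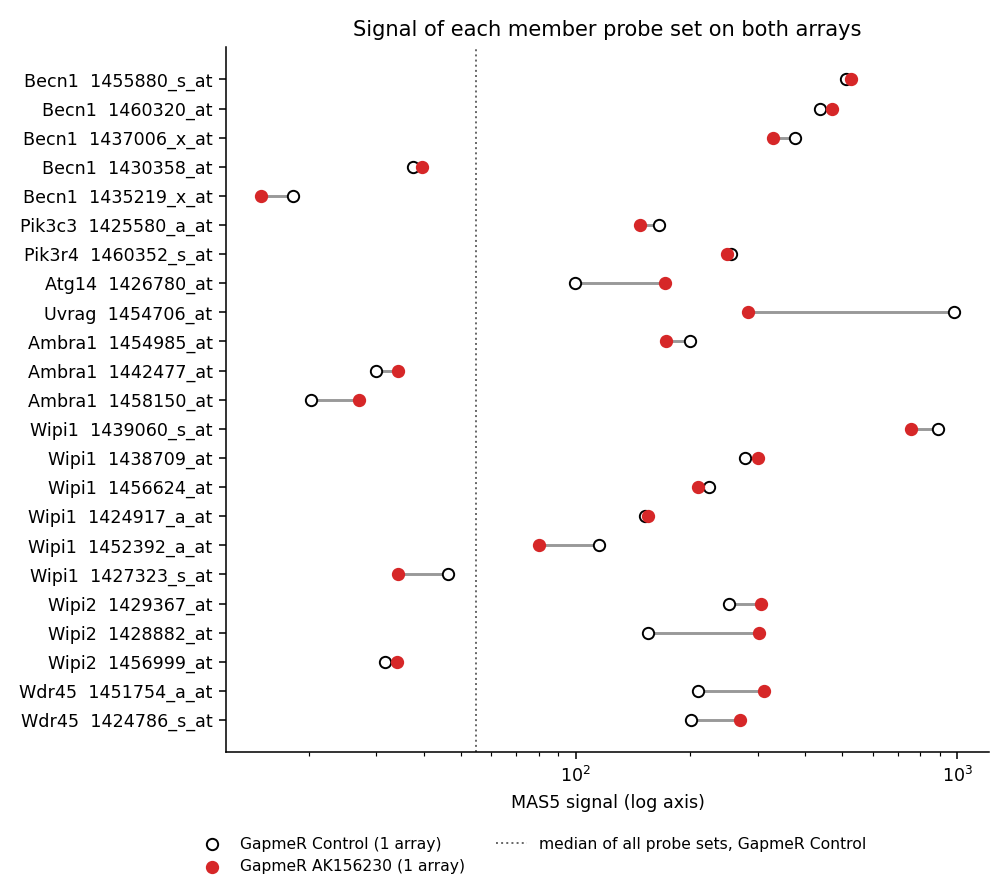
MAS5 signal on a log axis of each of the 23 member probe sets, with an open point for GapmeR Control, a red point for GapmeR AK156230 and a line joining them; the dotted line is the median of all probe sets on the GapmeR Control array. Uvrag has the longest line, from 982 to 282, and 6 probe sets lie under the median.

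The core subunits differed little between the arrays. Becn1, the scaffold of both complexes (GRCm38, chromosome 11, 101288258 to 101302286), had 5 probe sets. Its brightest had a signal of 510.4 in control cells and 526 in knockdown cells, 1.03-fold higher. A second gave 438 and 469, 1.07-fold higher. Another, 1437006_x_at, was made from the same transcript record as the brightest and gave 374 and 328, 1.14-fold lower. Thus 2 probe sets on one target went in opposite directions by small amounts. The other 2 were dim (37.5 and 39.6 for one, 18.2 and 15.0 for the other), and the log2 ratios of all 5 lay between -0.28 and 0.098.

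Pik3c3, the lipid kinase itself, had a single probe set with 165 in control cells and 148 in knockdown cells, a log2 ratio of -0.16. Pik3r4 (chromosome 9, 105642995 to 105687655), which anchors the kinase to membranes, gave 256 and 249, also from a single probe set, a log2 ratio of -0.038. Of the 7 core probe sets, 6 lay within 0.276 of 0 and none reached 2-fold. The single probe set of Pik3r4 is of the _s_at type, which can match more than 1 transcript.

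The subunits that replace each other on the core went opposite ways. Uvrag, on chromosome 7 from 98886742 to 99141167, gave a signal of 982 in control cells and 282 in knockdown cells, 3.48-fold lower, with a log2 ratio of -1.80. Both values were well above the median of their arrays. When all probe sets were divided by signal into 10 equal classes, Uvrag was in the brightest, in which the middle 95% of log2 ratios ran from -1.04 to 0.61, and 0.58% were lower than that of Uvrag. It was the only probe set that the annotation gives to the gene, so no second probe set could be set beside it.

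Atg14, on chromosome 14 from 47540893 to 47568434, had 99.4 in control cells and 171 in knockdown cells, 1.72-fold higher, with a log2 ratio of 0.78. It too had a single probe set, and its ratio lay within the middle 95% for its signal class, which ended at 0.96. On the array the Atg14 ratio was therefore below 2-fold and inside the common range, while the Uvrag ratio was outside it. With 24.3 added to every signal, the 25th percentile of all signals, the log2 ratio was -1.72 for Uvrag and 0.66 for Atg14.

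**Figure D2:**
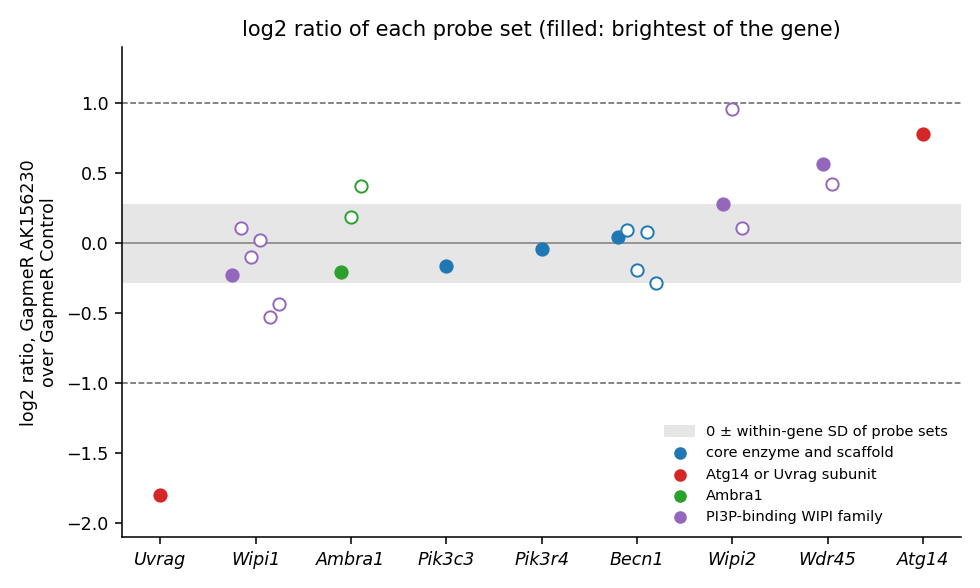
log2 ratio, knockdown over control, at every probe set, by gene in the order of the brightest probe set (filled); the grey band is 0 ± 0.276, the SD per probe set within a gene, and dashed lines are at 2-fold. On the signals as deposited Uvrag at -1.80 is the only point past 2-fold, and the core subunits cluster around 0.

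Ambra1, the activator of the Beclin complex, is at 91730138 to 91918849 of chromosome 2. Its brightest probe set had 199 in control cells and 173 in knockdown cells, a log2 ratio of -0.21. The other 2 gave 30.1 and 34.2, and 20.3 and 27.1, with log2 ratios of 0.19 and 0.41, but both lay under the median signal. The direction for Ambra1 thus differed between its bright and its dim probe sets, and the mean of the 3 was 0.13.

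Among the PI3P-binding proteins, Wipi1 was slightly lower by its brightest probe set, and Wipi2 and Wdr45 were higher at every probe set. None of the 11 probe sets reached 2-fold. Wipi2, which brings the Atg16l1 complex to the forming autophagosome, is at 142629533 to 142669672 of chromosome 5. Its brightest probe set had 252 in control cells and 306 in knockdown cells, a log2 ratio of 0.28. A second, 1428882_at, had 155 and 302, 1.95-fold higher, and the last was dim (31.6 and 34.1). The first and second gave similar signals in knockdown cells but not in control cells, and their log2 ratios, 0.28 and 0.96, differed by more than the SD of 0.390 between probe sets of a gene. This second probe set was the member just short of 2-fold, it lay at the upper end of the middle 95% for its signal (0.96), and it was the one that passed 2-fold with the arrays brought to the same median.

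Wdr45, the family member whose human counterpart is mutated in a neurodegeneration with brain iron accumulation, is on chromosome X from 7721987 to 7728201. It had 209.6 in control cells and 311 in knockdown cells at one probe set, and 201 and 269.6 at the other. Both ratios were above the within-gene SD, at 0.57 and 0.43 on the log2 scale, and neither was outside the middle 95% for its signal.

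Wipi1, on chromosome 11 from 109573521 to 109611389, had 6 probe sets. The brightest gave 888 in control cells and 758 in knockdown cells, 1.17-fold lower, and the next gave 278 and 301, 1.08-fold higher. The lowest ratio was at 1452392_a_at (115 and 80.2, a log2 ratio of -0.52), and 1427323_s_at, made from the same record, gave 46.3 and 34.4, with -0.43. These 2 were close to each other and below the other 4, which lay between -0.23 and 0.11. Without the _x_at and _s_at probe sets Wipi1 was represented by 1438709_at, the probe set with 278 and 301, and its log2 ratio turned from -0.23 to 0.11.

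Ordered by the brightest probe set, the log2 ratios ran from Uvrag (-1.80) through Wipi1 (-0.23), Ambra1 (-0.21), Pik3c3 (-0.16), Pik3r4 (-0.038), Becn1 (0.044), Wipi2 (0.28) and Wdr45 (0.57) to Atg14 (0.78). The gap between Uvrag and Wipi1 was 1.57. Every other gap between neighbours in this order was smaller than 0.390, the SD of the difference between 2 probe sets of a gene. Without Uvrag the remaining 8 genes had a median of 0.003, with 4 above and 4 below 0.

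**Figure D3:**
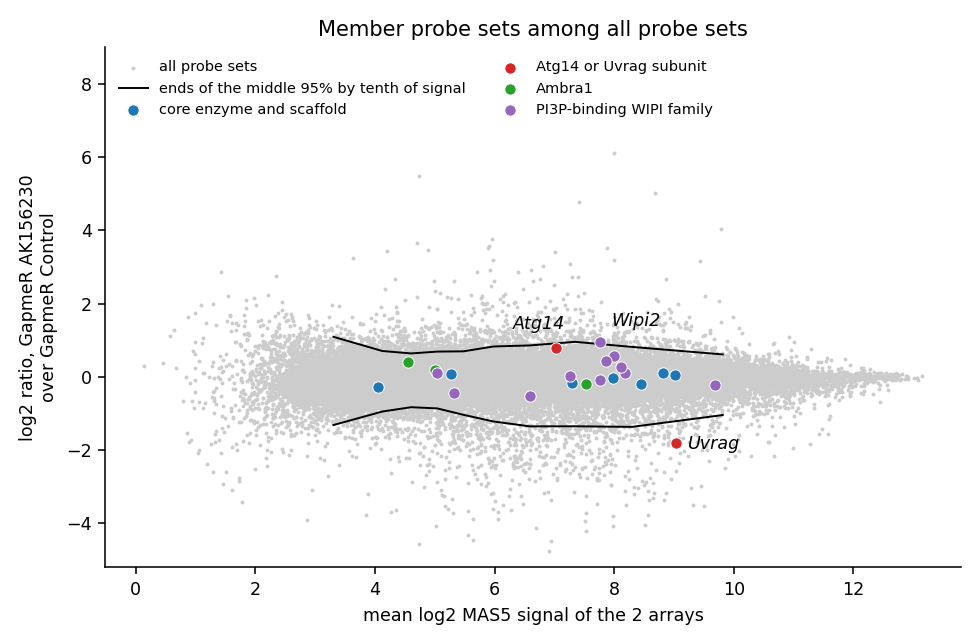
log2 ratio, knockdown over control, against the mean log2 MAS5 signal of both arrays, with all probe sets in grey, the members coloured by role and black lines at the ends of the middle 95% in each of 10 classes of signal. Uvrag lies below the lower line, the Wipi2 probe set at 0.96 on the upper line, and Atg14 inside it.

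Uvrag had the highest signal in control cells among the 23 probe sets, before Wipi1 (888). It spans 254.4 kb and is also the longest of the 9 genes, followed by Ambra1 (188.7 kb), Pik3c3 (82.5 kb), Pik3r4 (44.7 kb), Wipi2 (40.1 kb), Wipi1 (37.9 kb), Atg14 (27.5 kb), Becn1 (14.0 kb) and Wdr45 (6.2 kb). On these arrays long genes were lower more often, with 25.4% of the 778 genes of 160 kb or more past 2-fold on the lower side, counting genes whose signal reached the median of the brighter array, and 2.29% of the 5680 genes under 20 kb. In the first class 10.3% of genes had a log2 ratio at or below that of Uvrag, and the median was -0.43. Ambra1, in the same class, had -0.21 at its brightest probe set. The part of length in the Uvrag ratio was not tested.

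**Figure D4:**
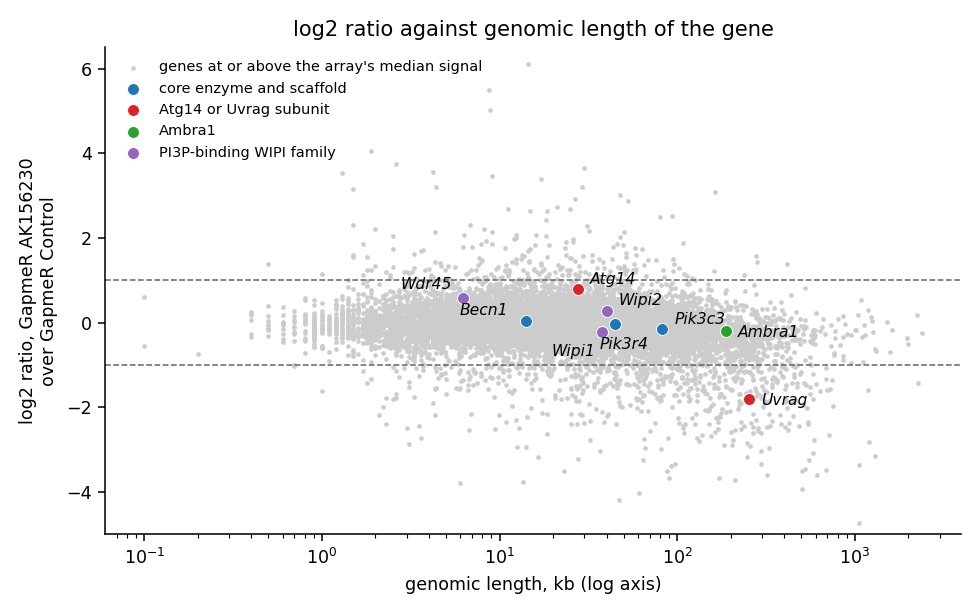
log2 ratio, knockdown over control, against genomic length in kb on a log axis, for genes whose signal reached the median of the brighter array (grey) and the 9 members (coloured by role), with dashed lines at 2-fold. Uvrag (254.4 kb) is below the 2-fold line and Ambra1 (188.7 kb) is close to 0.

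The genes with the signals closest to those of Uvrag on both arrays, by distance between log2 signals over the 2 arrays, were Lpl (954 and 282, distance 0.042), Pdgfra (1039 and 283), Gtf2i (899 and 265), Hacd1 (1008 and 319) and Mprip (922 and 317). Their lengths ran from 26.4 kb for Lpl to 118.4 kb for Mprip, all shorter than Uvrag. Pdgfra, a receptor for platelet-derived growth factor, is also one of the fibroblast markers above.

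Genes that act with the complex were described from 4 lists, which held 67 measured genes of 71 entries. Of these, 2 were at least 2-fold lower and none at least 2-fold higher, against the 3.85% and 1.59% of all genes, and the median log2 ratio was 0.012, against -0.074 for all genes. Among 23 partners and regulators of the core, the ubiquitin ligase gene Nedd4, whose product modifies Beclin 1 in human cells, was the only one past 2-fold. It had 2460 in control cells and 216 in knockdown cells, 11.4-fold lower, with log2 ratios of -3.50 and -3.31 at the other 2 probe sets. All 3 probe sets of Nedd4 were bright in control cells and much lower in knockdown cells. The gene spans 87.5 kb.

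The 3 partners next in size were higher in knockdown cells, by less than 2-fold at the brightest probe set. Stk4, which encodes the kinase Mst1 that phosphorylates Beclin 1, had 344 in control cells and 633 in knockdown cells, 1.84-fold higher, with log2 ratios of 1.07 and 1.16 at the others. Mapkapk3, another kinase of Beclin 1, was 1.74-fold higher (294 and 513, and 0.92 on the log2 scale at its other probe set), and Tab3, an adaptor that binds Beclin 1, was 1.76-fold higher (113 and 199). The mean of all 3 probe sets of Stk4 was 1.04, past 2-fold. Other kinase genes of the list, chosen after their values were seen, did not share this size or direction, with log2 ratios of -0.49 for Mapkapk2 (277 and 198), 0.26 for Dapk1 (180.0 and 216) and -0.35 for Dapk2, which was dim. Rubcn, the partner of Uvrag that restrains the kinase, and Nrbf2, a subunit of the Atg14 complex, are given for their place beside those subunits and were chosen after their values were seen. Rubcn had a log2 ratio of 0.033 (104 and 107) and Nrbf2 -0.18 (481 and 425).

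Of 16 other readers of PI3P none reached 2-fold, with log2 ratios from -0.69 to 0.62 at the brightest probe set of each gene. Zfyve9, an endosomal FYVE protein gene, was 1.62-fold lower. Wdfy3, which encodes the autophagy adaptor Alfy and spans 239.3 kb, was 1.58-fold lower, although its 4 other probe sets ran from -0.36 to -0.046. The sorting nexin gene Snx30 was 1.54-fold higher. Of 16 genes of PI3P turnover, Fig4 was lower by 2-fold or more. Fig4 encodes a phosphatase that works with the kinase Pikfyve, and it had 176 in control cells and 53.2 in knockdown cells, 3.31-fold lower, at its single probe set, with a length of 115.1 kb. The PI3P phosphatase genes Mtm1 (1.53-fold higher, with another probe set at -0.25) and Mtmr1 (1.48-fold lower) and the 5-phosphatase gene Inpp5e (1.39-fold lower) were within 2-fold.

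Uvrag also works with the tethering complexes of late endosomes, and none of 12 genes of endosomal RABs and tethers reached 2-fold. Vps33a, a subunit of these tethers, was the closest, with 122 in control cells and 61.5 in knockdown cells, 1.98-fold lower, and its second, dim probe set was at -0.72. Vps8, a subunit of the early endosomal tether, was 1.71-fold lower (278 and 163), with a second probe set at -0.77. Vps8 spans 221.6 kb, in the class of 160 kb or more described above. Tgfbrap1, another subunit of that tether, was 1.48-fold higher.

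Lists of the autophagy steps before and after the kinase were set beside the complex. Of the 9 genes of the ULK complex, ATG9 and ATG2, the kinase gene Ulk2 was at least 2-fold lower and none at least 2-fold higher, with a median log2 ratio of 0.078. Of the 16 genes of ATG12 and LC3 conjugation, Atg16l2 was lower and none was higher, with a median of -0.020. With 3.85% of all genes lower and 1.59% higher, a single call in lists of 9 or 16 genes, the kinase complex included, is no result about any of these steps, and the difference between them was not tested. Ulk2, with 79.7 kb, had 234 in control cells and 101 in knockdown cells. Atg16l2 had 58.5 in control cells, just above that array's median, and 25.3 in knockdown cells, under the median. Its other probe set was dim, with 19.2 and 8.43 and a log2 ratio of -1.19. The next in size in the first list were Atg101 (a log2 ratio of 0.60), Atg9b (0.49) and Atg9a (-0.36). In the second list they were Atg10 (-0.95, with a length of 289.4 kb), Atg12 (0.73) and Atg4d (0.55). Probe sets differed for 3 of these, with another of Atg9b at -0.031, another of Atg12 at 0.008 and another of Atg4d at -0.28. Atg7, the enzyme that activates ATG12 and LC3, was chosen after its values were seen, and its gene spans 217.5 kb. Its brightest probe set had 153 in control cells and 111 in knockdown cells, a log2 ratio of -0.46, and its 4 probe sets ran from -1.23 to -0.17. Apart from the arrays, the study reported Ulk2, Atg7 and Atg16l2 as significantly lower by RT-qPCR after the same knockdown.

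**Figure D5:**
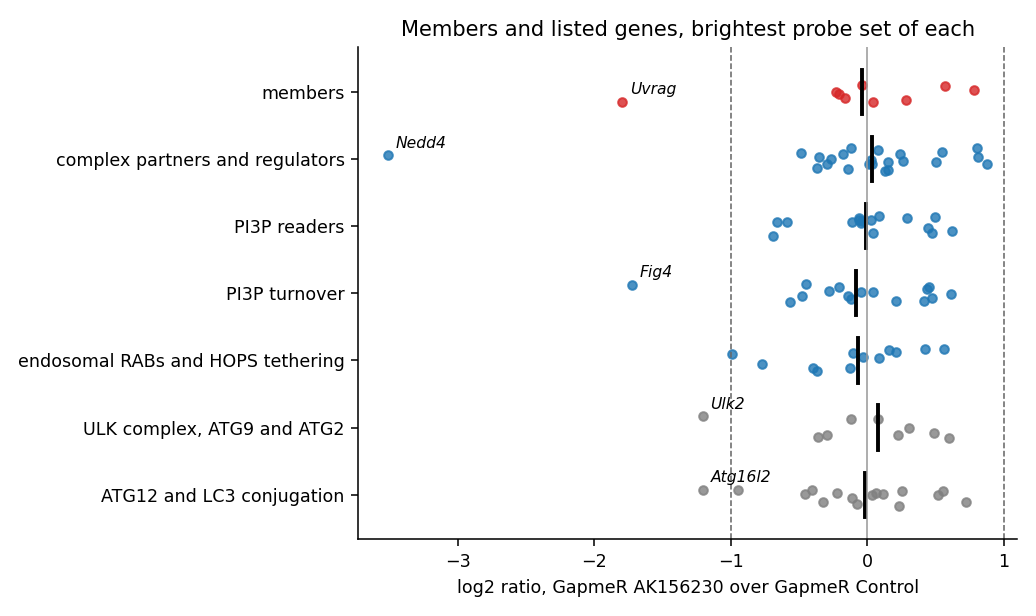
log2 ratio, knockdown over control, for the 9 members (red), the genes of the 4 lists of partners, PI3P readers, PI3P turnover and endosomal tethering (blue) and the comparison lists of the steps before and after the kinase (grey), with a black bar at each median and dashed lines at 2-fold. Each gene is shown by its brightest probe set. The genes past 2-fold by that probe set, Uvrag, Nedd4, Fig4, Ulk2 and Atg16l2, are all on the lower side. Of all genes, 3.85% were lower and 1.59% higher by 2-fold or more.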

How the data were processed

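Expression in 1 array of MEFs transfected with GapmeR Control and 1 with GapmeR AK156230 was taken from the deposited table of intensity values, which the authors made with MAS5 (linear signals per probe set, scaled within each array; MAS5 version and target intensity not given in the sources used here). This table held no detection calls. The study's methods name a porcine array, but the probe sets are those of the mouse annotation, in which 34945 had 1 gene symbol, 932 had several and 9160 were not listed; symbols of 34741 were updated through the Entrez ID to RefSeq genes of GRCm38.p6, the source of positions and promoters. Both signals equalled, within 0.005 signal units, the values in all 171 rows at hand of a list published with the study, which gives scale and direction. None of these 171 rows held a member, and the rest of that list was not at hand.

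Log2 ratios (knockdown over control) were computed from signals as deposited, without an offset. For each gene, the brightest probe set by mean log2 signal was used. The call was a ratio of 2-fold or more, the threshold of the study; its test for groups of arrays (SAM) needs replicates and was not used. Named genes are the members, listed genes past 2-fold and up to 3 more per list with the largest ratios at or above the median signal, and the 5 genes nearest to Uvrag; Rubcn, Nrbf2, Mapkapk2, Dapk1, Dapk2, Atg7 and the neighbours of Uvrag were added after their values were seen. Cell type markers were a separate list. The members and lists were chosen with earlier results of these data known. The counting and scaling were tested on simulated data. The number of arrays limits the precision. Alternatives were other scalings, an offset, brightness filters, other thresholds, averaging of probe sets and leaving out _x_at and _s_at probe sets. Python 3.11.15, numpy 2.4.6, pandas 2.3.3, statsmodels 0.14.6 and matplotlib 3.10.9 were used.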

Additional observations from a re-analysis of the deposited data

How the results depend on the processing

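Uvrag was the only member gene called lower under each of the 10 alternatives, with log2 ratios from -1.80 to -1.69. Only the other scalings and the offset could change its ratio. It has 1 probe set, of neither the _x_at nor the _s_at type, and filters and thresholds leave the ratio as it is. No member gene was higher except at a threshold of 1.5-fold (1 gene, Atg14). Member probe sets higher numbered 1 with the same median, 1 with quantile normalization and 2 at 1.5-fold, in place of 0. Of all 45037 probe sets, 896 were higher with the same median and 824 with quantile normalization. Among the 67 pathway genes, those lower numbered 7 and those higher 5 at 1.5-fold, and 1 was higher (Stk4) with the mean of all probe sets. No share of all genes or probe sets at 1.5-fold is given here, so counts at that threshold are no result about these genes. The median log2 ratio of member probe sets was between 0.027 and 0.15. The sign changed for Ambra1 (0.13 with the mean of probe sets) and for Wipi1 (0.11 without _x_at and _s_at probe sets). It also changed for Becn1 (-0.050 with the mean of probe sets) and Pik3r4 (0.067 with the same median), which were near 0. Why probe sets of a gene differed was not tested. Bringing the arrays to the same median shifted every log2 ratio by 0.105 and the median of all probe sets from -0.066 to 0.039. No paired analysis was possible because each condition has 1 array. Without detection calls, signals under the array's median may be background, which limits the 6 dim member probe sets.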

Other observations

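The genes beside Uvrag on chromosome 7 were looked at after the Uvrag value was seen. None of the measured genes overlaps it. The nearest on either side, Wnt11 and Dgat2, had log2 ratios of -0.046 (59.1 in control cells and 57.2 in knockdown cells) and -0.15 (131 and 118), and the next, Thap12 and Mogat2, had 0.42 (396 and 529) and -0.043 (184 and 178). None of these 4 genes reached 2-fold, and they span from 15.0 to 29.1 kb.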
